A study of Mus musculus with 6 samples.

Results

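Hypusine is an amino acid made in the cell by altering a lysine of the translation factor eIF5A. Deoxyhypusine synthase, encoded by Dhps, moves part of the polyamine spermidine onto that lysine, and deoxyhypusine hydroxylase, encoded by Dohh, completes the residue. Hypusinated eIF5A helps ribosomes past sequences that stall, such as runs of proline, and aids termination. Eif5a encodes the widely used form of the factor, and Eif5a2 a paralog that most tissues hold at lower levels.

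These 4 genes were taken by symbol from a deposited table of RNA sequencing counts, and all 4 were among its 10551 genes. Each lay well above 1 CPM (a gene's count scaled by the size of its library), the level at which the table appears to have been filtered, in all 6 libraries. The libraries came from bone marrow-derived macrophages of C57BL/6J mice, 3 from cells with a macrophage-specific Dhps knockout (Dhps_delta_Myel) and 3 from control cells. Bone marrow-derived macrophages are grown in culture from marrow progenitors. The labels name no Cre driver, deleted exon, stimulus, age or further allele for either group, and do not say whether libraries of a group came from separate mice or cultures. The p-values therefore measure the spread between these libraries, which may be technical. The series' title poses the enzyme's role in the pro-inflammatory state of macrophages.

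Library totals lay between 11648710 and 16224818 counts. Of 10 macrophage markers all 10 were measured, among them Adgre1, Csf1r and Cd68. Their summed level was 14613 to 17218 CPM in knockout libraries and 23896 to 26448 CPM in control libraries, and Lyz2 was the marker that fell. Without Lyz2 the other 9 summed to 6553 to 7756 CPM in knockout libraries and 7145 to 7678 CPM in control libraries, which overlap. The summed level of the 11 measured of 13 neutrophil and precursor markers was 657 to 854 CPM in knockout libraries and 370 to 470 CPM in control libraries. Ngp, S100a8, Lcn2, S100a9 and Ltf rose at an edgeR adjusted p under 0.05. Over all genes 0.0948% rose and 0.00948% fell at that level. Mpo, Prtn3, Camp, Cebpe, Elane (log2 fold change 0.38) and Mmp8 (-0.020) did not pass, and of the 11 only Mmp8 was below 0. The 4 measured of 8 stromal markers summed to 8.25 to 13.8 CPM in knockout libraries and 4.50 to 7.13 CPM in control libraries. Col1a2 and Sparc rose, while Postn (log2 fold change 0.41) and Pdgfra (-0.078) did not pass. The 4 measured of 5 mast cell and basophil markers summed to 5.36 to 7.79 CPM in knockout libraries and 2.00 to 4.44 CPM in control libraries. The smallest p was that of Mcpt8 (log2 fold change 2.00, edgeR adjusted p = 0.110), followed by Prss34 (1.70, adjusted p = 0.132). Kit (0.11, adjusted p = 0.991) and Cpa3 (-0.11, adjusted p = 0.991) differed little. The 5 measured of 6 megakaryocyte and platelet markers all had an unadjusted p under 0.05, as did 6.48% of all genes. They differed in direction and none passed. Ppbp, Itga2b, Tubb1 and Gp9 had log2 fold changes of 0.64 to 1.54, and Pf4, by far the most abundant, -0.29. Of 5 dendritic cell and 5 B cell markers 1 each was measured, Zbtb46 at 0.57 (adjusted p = 0.673) and Cd79b at 0.50 (adjusted p = 0.909), and of 5 T and NK cell markers 0.

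The residue that the pathway modifies is encoded by codon 50 in both substrate genes. The coding sequence around it is shown because it is the site on which Dhps and Dohh act, and because it shows how far reads of Eif5a and Eif5a2 can be told apart. Capitals mark the lysine codon, at bases 69919166 to 69919168 of chromosome 11 on the minus strand for Eif5a and at bases 28782199 to 28782201 of chromosome 3 on the plus strand for Eif5a2 (GENCODE M21, GRCm38, the assembly of the mm10 coordinates in the table).
Eif5a: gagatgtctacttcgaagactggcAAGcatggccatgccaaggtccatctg
Eif5a2: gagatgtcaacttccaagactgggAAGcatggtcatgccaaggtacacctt
Both stretches span an exon junction. They share 44 of 51 bases and 10 of 17 codons, and all 17 codons encode the same residues. Over the whole coding sequence, 154 codons in Eif5a and 153 in Eif5a2, 72.8% of aligned bases were identical. The longest run without a difference was 14 bases, far under the library insert of about 110 bases that the labels give.

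Dhps, the targeted gene, was lower in the knockout libraries, but most of its counts remained and the difference did not pass the test across all genes. The counts cover all 9 exons, including any outside the deleted part, and so do not measure intact transcript alone. The raw counts were 192, 175 and 299 in knockout libraries 1, 2 and 3, against 337, 325 and 269 in control libraries 1, 2 and 3. After scaling of the libraries these were 13.2, 13.6 and 18.3 CPM in knockout libraries, against 24.1, 20.9 and 23.4 CPM in control libraries. Every knockout library lay below every control library. Of all genes, 5.45% were separated in this way with the knockout lower. Knockout library 3 stood above the other two: the 95% counting interval of its value was 16.3 to 20.5 CPM, and that of knockout library 2, 11.6 to 15.7 CPM. The interval of knockout library 3 overlapped that of control library 2, the lowest control, at 18.7 to 23.3 CPM. These are exact Poisson intervals and cover counting error only.

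Dhps averaged 15.0 ± 2.86 CPM in knockout libraries and 22.8 ± 1.67 CPM in control libraries (SD, n = 3 each). The fitted level in knockout was 66.3% of control, with a 95% interval of 54.0% to 81.4% (log2 fold change -0.59, SE 0.14). In edgeR's quasi-likelihood test Dhps ranked 29th of 10551 genes by p, and 4th among those that were lower. Its unadjusted p was 0.00059 and its adjusted p 0.214, so it did not pass the threshold of an adjusted p under 0.05, which 0.104% of genes passed, 0.0948% as higher and 0.00948% as lower in knockout. An exact two-sided permutation test over the 6 libraries gave p = 0.1, the smallest that 3 libraries against 3 allow. Leaving out each library in turn gave log2 fold changes of -0.76, without knockout library 3, to -0.50, without knockout library 1, with adjusted p of 0.076 to 0.66. DESeq2 gave an adjusted p = 0.080 and limma-voom 0.223. Of 16 alternatives Dhps passed in 1, the fit with the replicate number as a block, which is described with the processing alternatives.

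The Dhps level and some of the marker sums had the same order over the libraries of a group. Knockout libraries 1, 2 and 3 had 13.2, 13.6 and 18.3 CPM of Dhps beside 657, 721 and 854 CPM of summed neutrophil and precursor markers and 8.25, 11.6 and 13.8 CPM of summed stromal markers. Control libraries 1, 2 and 3 had 24.1, 20.9 and 23.4 CPM of Dhps beside 470.1, 370.5 and 394 CPM of the neutrophil and precursor markers and 4.998, 4.50 and 7.13 CPM of the stromal markers. The order of Dhps was thus that of the neutrophil and precursor sum in both groups. It was that of the stromal sum in the knockout group but not in the control group. The same held for the mast cell and basophil sum (5.36, 6.97 and 7.79 CPM in knockout libraries). It also held for the megakaryocyte and platelet sum (1195, 1306 and 1327 CPM in knockout libraries). Most of that sum was Pf4 (1166, 1270 and 1299 CPM in knockout libraries). Ppbp (10.4, 14.3 and 10.9 CPM), Itga2b (15.8, 19.7 and 14.0 CPM), Tubb1 (1.38, 1.01 and 1.66 CPM) and Gp9 (1.72, 1.86 and 1.10 CPM) had other orders there. With 3 libraries a group, such orders can match by chance. The macrophage sum, at 14613, 17218 and 15969 CPM in knockout libraries and 23896, 26225 and 26448 CPM in control libraries, had another order in both. The part of such cells in the remaining Dhps counts was not tested. In control libraries, whose cells lack the knockout, the neutrophil and precursor sum had the order of Dhps as well. In bulk RNA, fewer cells with an intact gene and less transcript per cell cannot be told apart. Counts over all exons also cannot separate intact transcript from transcript that lacks only the deleted part.

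**Figure D1:**
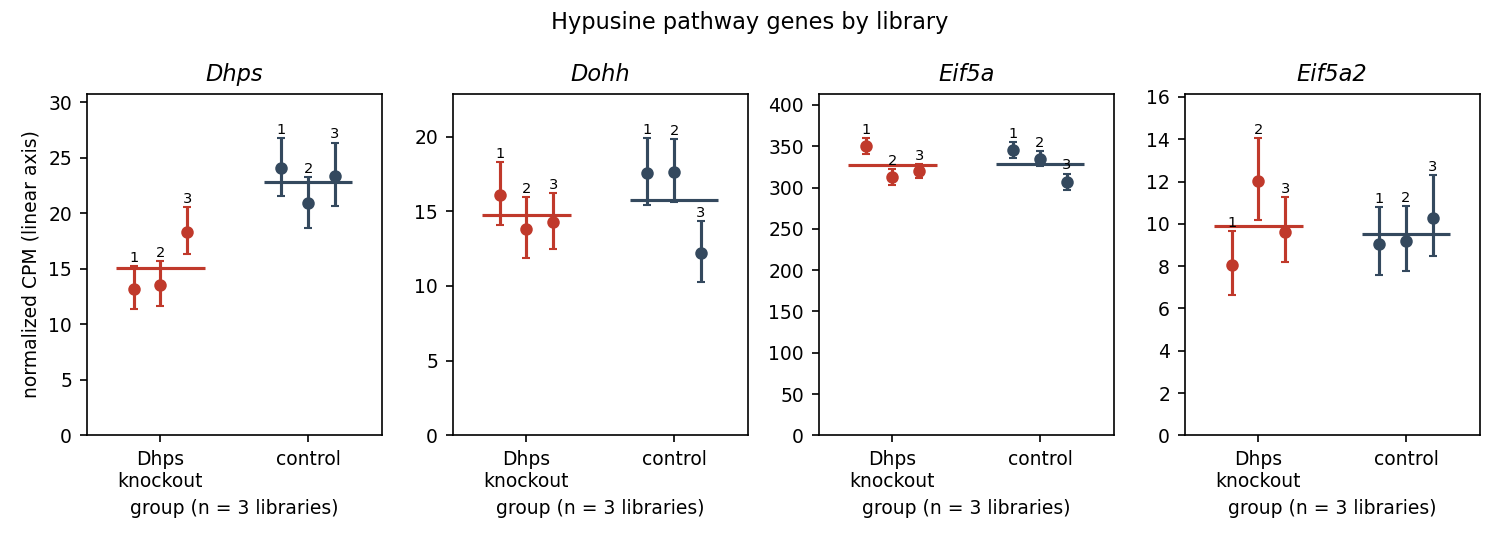
Normalized CPM of the 4 hypusine pathway genes (linear axis from 0) in the 3 Dhps knockout libraries, left, and the 3 control libraries, right. Points are libraries with their replicate number, bars their exact 95% counting intervals, and lines the group means; the Dhps libraries do not overlap between groups (13.2 to 18.3 against 20.9 to 24.1 CPM), while those of the other 3 genes do.

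Dhps occupies bases 85071757 to 85075161 of chromosome 8 (mm10), in 9 exons of 1332 bases in all. Its last 127 exon bases, 9.53% of that length, are exonic in Wdr83 too, on the opposite strand. Counts over all 9 exons include those outside the deleted part, which the labels do not name. Wdr83, which encodes a WD repeat protein, had 2.54, 2.63 and 2.94 CPM in knockout libraries, against 4.998, 2.57 and 2.52 CPM in control libraries. Control library 1 was the high one, and the other 5 lay within 2.52 to 2.94 CPM. The log2 fold change of Wdr83 was -0.31 (95% interval -0.94 to 0.31, edgeR adjusted p = 0.92), and it turned to 0.090 without control library 1. On the other side, 4637 bases away, Fbxw9, an F-box protein gene, had 6.12, 6.28 and 5.82 CPM in knockout libraries, against 5.85, 6.81 and 7.04 CPM in control libraries, with overlapping groups.

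**Figure D2:**
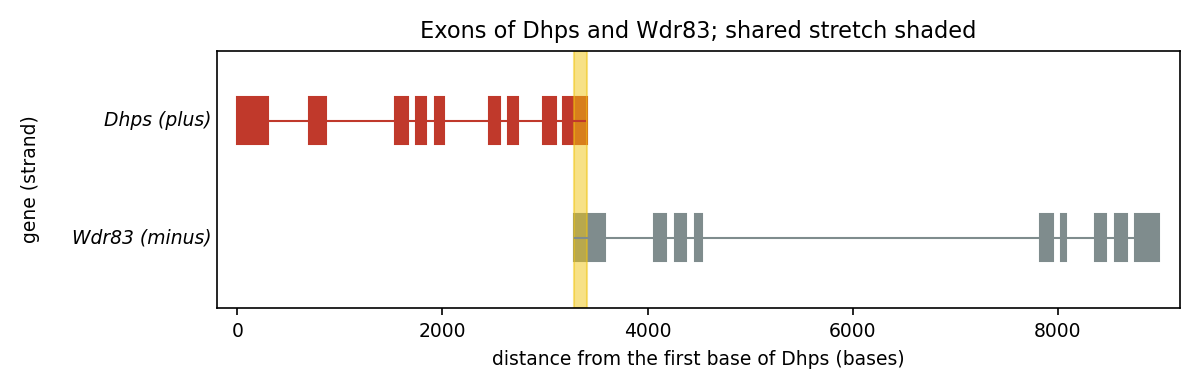
Exons (boxes) of Dhps, on the plus strand, and Wdr83, on the minus strand, by distance in bases from the first base of Dhps. The shaded stretch is the 127 bases that are exonic in both genes; the other exons of Dhps are its own.

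Dohh, the hydroxylase gene, had 16.1, 13.8 and 14.3 CPM in knockout libraries, against 17.6, 17.6 and 12.2 CPM in control libraries. The groups overlapped, since control library 3 was the lowest of the 6. Dohh averaged 14.7 ± 1.21 CPM in knockout and 15.8 ± 3.13 CPM in control libraries (SD, n = 3 each). The log2 fold change was -0.11 (SE 0.15, 95% interval -0.43 to 0.21, edgeR adjusted p = 0.961), a level of 92.8% of control with an interval of 74.4% to 116%. Without control library 3 it was -0.26 (adjusted p = 0.83). Dohh lies on chromosome 10 (81384428 to 81388352, plus strand) in 5 exons of 1444 bases. GENCODE M21 places exons of another gene model, Gm48551, over 67.3% of that length on the same strand. Gm48551 is not among the rows of the table, and how reads of the shared stretch were counted is not given in the sources used here.

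Eif5a, the gene of the main substrate, was the most abundant of the set, above 95.5% of genes in CPM. It had 350.1, 313 and 320 CPM in knockout libraries, against 346, 335 and 307 CPM in control libraries. Knockout library 1 was the highest and control library 3 the lowest of the 6, and the groups overlapped. The means were 327 ± 19.9 CPM in knockout and 329 ± 20.1 CPM in control libraries (SD, n = 3 each). The log2 fold change was -0.0069 (SE 0.087, 95% interval -0.19 to 0.18, edgeR adjusted p = 0.998), a level of 99.5% of control with an interval of 87.6% to 113%. Its sign turned with upper-quartile or no size factors and without knockout library 2, knockout library 3, control library 1 or control library 2, and was kept with RLE size factors and without knockout library 1 or control library 3. Eif5a lies on chromosome 11 (69916712 to 69921958, minus strand) in 11 exon intervals of 2017 bases. At least 50 bases without a difference were shared with the transcripts of 3 processed pseudogenes. The longest such run was 117 bases, with Eif5al3-ps, so that part of the reads may not have been assignable. None of the 3 was a row of the table.

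Eif5a2, the paralog, had 8.05, 12.01 and 9.63 CPM in knockout libraries, against 9.07, 9.19 and 10.3 CPM in control libraries. Knockout library 1 was the lowest and knockout library 2 the highest of the 6. The means were 9.89 ± 2.00 CPM in knockout and 9.51 ± 0.656 CPM in control libraries (SD, n = 3 each). The log2 fold change was 0.056 (SE 0.17, 95% interval -0.30 to 0.42, edgeR adjusted p = 0.990), a level of 104% of control with an interval of 81.1% to 133%. It was -0.10 without knockout library 2. Eif5a2 lies on chromosome 3 (28781311 to 28798846, plus strand) in 5 exons of 4992 bases, of which the longest holds 4451. No run of 50 bases was shared with the transcript of another gene, Eif5a included.

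**Figure D3:**
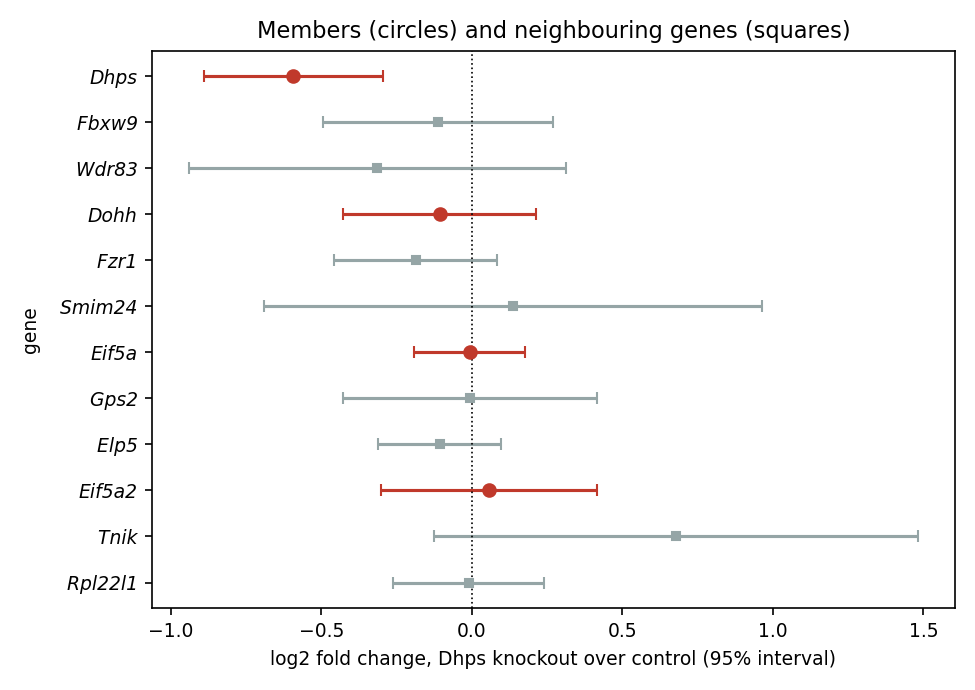
Log2 fold change of Dhps knockout over control with its 95% interval, for the 4 hypusine pathway genes (circles) and the nearest measured gene on each side of them (squares). The interval of Dhps (-0.89 to -0.30) lies below 0, while those of Dohh, Eif5a, Eif5a2 and the 8 neighbours include 0.

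The other neighbours of the set did not pass the test either. Fzr1 before Dohh had a log2 fold change of -0.19 (95% interval -0.46 to 0.085), and Smim24 after it 0.14 (-0.69 to 0.96). Gps2 and Elp5, the nearest measured genes to Eif5a, had -0.0055 (-0.43 to 0.42) and -0.11 (-0.31 to 0.097). Tnik and Rpl22l1, the nearest to Eif5a2, had 0.68 (-0.12 to 1.48) and -0.011 (-0.26 to 0.24). Their edgeR adjusted p-values lay at 0.838 or above. Tnik encodes a protein kinase and lay near the lowest levels in the table, with 1.64 ± 0.589 CPM in knockout and 1.02 ± 0.105 CPM in control libraries (SD, n = 3 each).

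The spread between libraries differed among the 4 genes. For Dhps the coefficient of variation was 19.0% in knockout and 7.33% in control libraries, beside a counting error of 5.45% to 7.56% per library. For Dohh it was 8.23% in knockout and 19.8% in control libraries, with a counting error of 6.04% to 8.45%. Eif5a varied by 6.09% in knockout and 6.10% in control libraries, several times its counting error of 1.39% to 1.68%. For Eif5a2 the values were 20.2% in knockout and 6.90% in control libraries, with a counting error of 7.98% to 9.25%. With 3 libraries a group, these spreads are themselves loosely known.

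Levels were compared between genes as CPM per kilobase of exon length. In knockout libraries Eif5a was at 162 ± 9.89, Dhps at 11.3 ± 2.15, Dohh at 10.2 ± 0.839 and Eif5a2 at 1.98 ± 0.400 CPM per kilobase (SD, n = 3). In control libraries Eif5a was at 163 ± 9.96, Dhps at 17.1 ± 1.25, Dohh at 10.9 ± 2.17 and Eif5a2 at 1.90 ± 0.131 CPM per kilobase (SD, n = 3). The order was thus the same in both groups, with the substrate gene far above the enzyme genes. In knockout libraries the ranges of Dhps (9.91 to 13.8) and Dohh (9.55 to 11.1) overlapped. In control libraries Dhps (15.7 to 18.1) lay above Dohh (8.43 to 12.2) in every library, and the other neighbours in the order did not overlap in either group. The exon length of Eif5a includes alternative first exons, so its level per kilobase would be higher over the length of a single transcript.

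The balance between enzyme and substrate transcripts was followed as a ratio within each library, which does not depend on library scaling. Per kilobase, Dhps transcript amounted to 0.0571, 0.0657 and 0.0869 of Eif5a transcript in knockout libraries, against 0.105, 0.0945 and 0.116 in control libraries. The groups did not overlap, and the log2 difference was -0.61 (SE 0.20). The ratio of Dhps to Eif5a2 did not overlap either, at 6.15, 4.23 and 7.14 in knockout libraries against 9.94, 8.52 and 8.54 in control libraries, a log2 difference of -0.65 (SE 0.24). Dhps to Dohh was 0.890, 1.07 and 1.39 in knockout libraries against 1.49, 1.29 and 2.08 in control libraries. There knockout library 3 lay above control library 2, and the log2 difference was -0.53 (SE 0.28). Without control library 3 it was -0.33. Over all sets of 5 libraries the log2 difference was -0.78 to -0.47 for Dhps over Eif5a, -0.82 to -0.44 for Dhps over Eif5a2 and -0.70 to -0.33 for Dhps over Dohh.

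The ratios without Dhps differed less. Dohh amounted to 0.0642, 0.0616 and 0.0624 of Eif5a per kilobase in knockout libraries, against 0.0710, 0.0735 and 0.0555 in control libraries, a log2 difference of -0.076 (SE 0.13). The log2 difference was -0.12 (SE 0.33) for Dohh over Eif5a2 and -0.047 (SE 0.24) for Eif5a over Eif5a2. Without knockout library 2 Dohh over Eif5a2 turned to 0.072 and Eif5a over Eif5a2 to 0.14. Eif5a over Eif5a2 was also above 0, at 0.022, without control library 1. Of the 6 ratios tested with an exact two-sided permutation test, Dhps over Eif5a and Dhps over Eif5a2 had p = 0.1, the smallest possible, and an adjusted p = 0.3. Dhps over Dohh had an exact permutation p = 0.2 and an adjusted p = 0.4. No ratio could pass the threshold with 3 libraries a group.

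**Figure D4:**
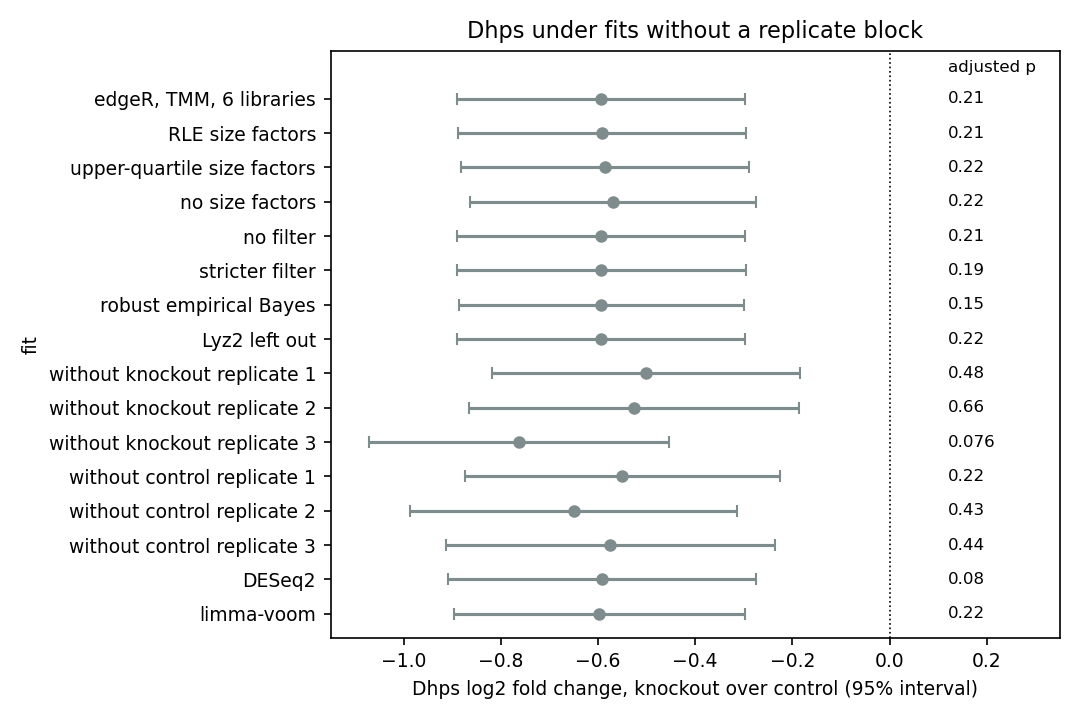
Log2 fold change of Dhps, knockout over control, with its 95% interval and adjusted p, under the fit with all 6 libraries and under other size factors, filters, tools and sets of libraries. The estimates lie between -0.76 and -0.50 and every interval lies below 0, and no adjusted p plotted is under 0.05; the fit with the replicate number as a block, in which Dhps passed, is not plotted and is described with the processing alternatives.

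Genes around the pathway, in lists drawn up from general knowledge, had no member that passed edgeR's test over all genes. Of 18 listed genes of polyamine synthesis, breakdown and feedback, Amd1, Amd2, Oaz1, Oaz3, Sat2 and Agmat were not measured. Of the 12 measured genes none rose or fell. None had an unadjusted p below 0.05 either, a level that 6.48% of genes in the table reached. Their median log2 fold change was 0.031, and that of all genes -0.0044. The smallest p-values were those of Sat1, which starts polyamine breakdown (0.18, 95% interval -0.0076 to 0.37), Atp13a2, a lysosomal polyamine exporter (-0.22, -0.46 to 0.018), Odc1, which makes putrescine (-0.17, -0.36 to 0.028), and Azin1, which relieves the inhibition of ornithine decarboxylase (0.10, -0.092 to 0.30).

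Of 20 listed symbols for elongation, termination, ribosome recycling and related factors, Eif5b, Eif6 and Eef2k among them, 18 were measured. Gcn1l1 and Gcn1 are older and newer symbols of the same gene, measured here as Gcn1l1. None passed and 1 had an unadjusted p under 0.05. That was Gspt1, the release factor eRF3a, at 118 ± 7.24 CPM in knockout and 96.6 ± 8.65 CPM in control libraries (SD, n = 3 each; log2 fold change 0.29, SE 0.096, edgeR adjusted p = 0.547). Eef1a1, which brings aminoacyl-tRNA to the ribosome, had -0.11 (95% interval -0.29 to 0.078), Eef1d, a subunit of its exchange factor, -0.15 (-0.35 to 0.062), and Eif5b, which joins the ribosomal subunits, 0.11 (-0.084 to 0.31). The list's median was -0.048.

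Diphthamide is a modified residue of the elongation factor eEF2 and, like hypusine, is made by enzymes dedicated to it. All 7 of its listed genes were measured, and none passed or had an unadjusted p under 0.05. The median log2 fold change was 0.043. Dph7 had the smallest p, at 1.75 ± 0.415 CPM in knockout and 2.58 ± 0.241 CPM in control libraries (SD, n = 3 each). Its log2 fold change was -0.55 (95% interval -1.18 to 0.075). Dph1 (0.21, -0.14 to 0.56), Dph6 (0.29, -0.24 to 0.82) and Dph2 (-0.20, -0.63 to 0.23) followed.

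Of 4 genes that act on eIF5A itself none passed. The deacetylase gene Hdac6 had 5.68 ± 0.404 CPM in knockout and 7.78 ± 1.21 CPM in control libraries (SD, n = 3 each). The difference was -0.45 on the log2 scale (SE 0.18, edgeR unadjusted p = 0.027, adjusted p = 0.69). Kat2b, an acetyltransferase, had -0.11 (95% interval -0.34 to 0.12), Sirt2, another deacetylase, 0.076 (-0.13 to 0.29), and Xpo4, the exportin that carries eIF5A out of the nucleus, 0.073 (-0.18 to 0.32). The median was -0.019.

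Of 8 genes whose protein output has been tied to hypusinated eIF5A in earlier work, none passed, with a median of 0.010. Idh2, the mitochondrial isocitrate dehydrogenase of the NADP-linked kind, had 43.9 ± 4.71 CPM in knockout and 59.8 ± 5.90 CPM in control libraries (SD, n = 3 each; log2 fold change -0.45, SE 0.11, edgeR unadjusted p = 0.00067, adjusted p = 0.214). Atg3, an autophagy enzyme, had 0.20 (95% interval -0.022 to 0.41), Rhoa, a GTPase of the actin cytoskeleton, 0.14 (-0.037 to 0.32), and Suclg1, a subunit of succinyl-CoA ligase, -0.12 (-0.34 to 0.095). These are transcript levels, and protein levels were not measured here. DESeq2 and limma-voom called no member of the 5 lists.

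**Figure D5:**
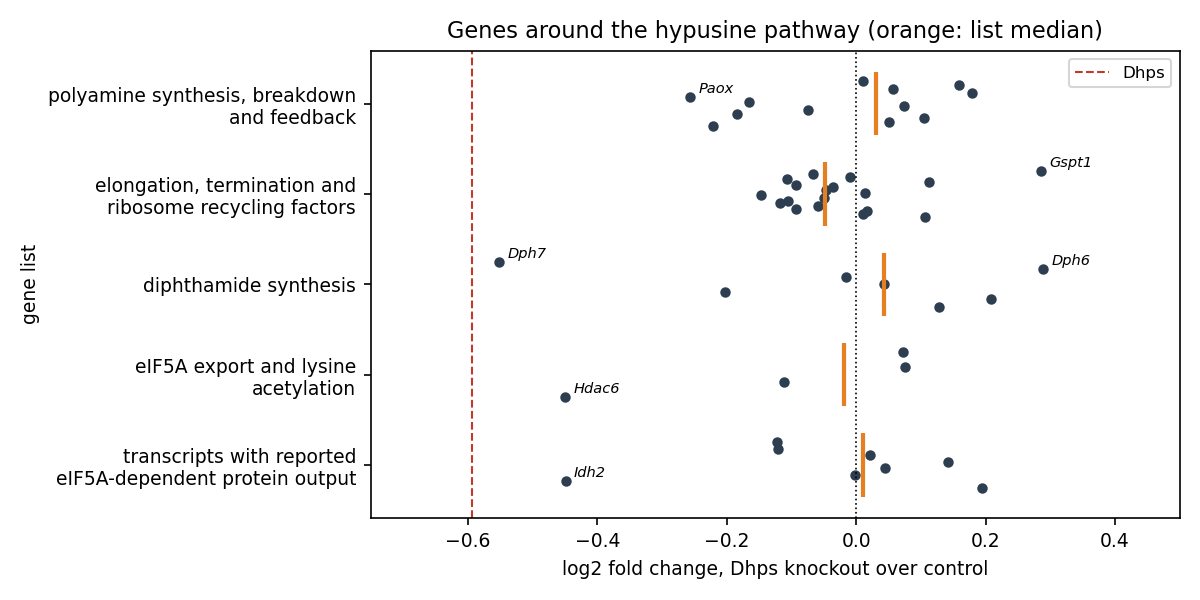
Log2 fold change of Dhps knockout over control for each measured gene of the 5 lists around the pathway. Points are genes, named where past 0.25 in size, orange lines list medians, and the dashed line is Dhps at -0.59; the medians lie between -0.048 and 0.043.

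The genes most like each member across the 6 libraries were found by Pearson r of log2 normalized CPM among 6860 other genes averaging at least 10 CPM (6861 for Eif5a2, itself below that level). For Dhps 6 genes had an r at or above that of Plaa. The 5 named here are Ddx47 (r = 0.995), Snrpd2 (0.985), Pdcd2l (0.982), Frmd4b (0.979) and Plaa (0.974). Snrpd2, a core protein gene of the spliceosome, had 16.0 CPM in knockout and 23.1 CPM in control libraries (log2 fold change -0.52, edgeR adjusted p = 0.290). For Dohh they were Rbm6 (0.997), Irak4 (0.980), Srsf5 (0.980), Smarcd2 (0.972) and Homer3 (0.972). Eif5a was most like Rxra (0.996), Prmt2 (0.994), Msrb1 (0.993), Rpl29 (0.992) and Prkacb (0.991), and Eif5a2 most like Malsu1 (0.983), Exosc9 (0.983), Tmem30a (0.980), Cd36 (0.976) and Dusp16 (0.976). No named gene appeared for more than 1 member. The 6 libraries share depth and scaling between genes, and with so few points values of this size describe these libraries only.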

How the data were processed

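The labels' protocols give Ion Proton sequencing of the RNA. The values used are raw read counts for each gene as deposited by the authors, beside exon coordinates and summed exon lengths. According to the submitters' processing notes, the tools were STAR (2.4.2a), featureCounts, Subread (1.5.0) and edgeR with the mm10 build, with no role or order. Which annotation and strand setting were used is not stated there. The third highest value of every gene exceeded 1 CPM.

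Library scaling used edgeR's TMM method. The quasi-likelihood test of edgeR 4.0.16 (two-sided, genotype only, R 4.3.3) was adjusted by Benjamini-Hochberg over all 10551 genes. The low-count filter (filterByExpr, minimum count 10) took out 0 genes. An SE is the log2 fold change divided by the root of its F statistic. Ratios were tested with exact permutation tests in scipy 1.17.1. The model's code was first tested on simulated data. Alternatives were other size factors and filters, robust fitting, the replicate number as a block, Lyz2 left out, each library left out, DESeq2 1.42.0 and limma-voom (limma 3.58.1).

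Overlaps, shared runs and coding sequences came from GENCODE M21 (GRCm38). By rule the text names the 4 genes, their nearest measured genes, up to 4 genes per list by p, members called, and 5 of the most alike. Other named genes were chosen after their values were seen. The members and lists were chosen with earlier results of these data known. Protein sequences were not used here.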

Additional observations from a re-analysis of the deposited data

How the results depend on the processing

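Dhps stayed lower in the knockout under all 16 alternatives (log2 fold change -0.76 to -0.50, without each library in turn -0.76 to -0.50). With the replicate number as a block it was -0.61 with an edgeR adjusted p = 0.033, and 35 genes were called, 26 higher and 9 lower in knockout. Deviations of same-numbered libraries correlated at 0.139, 0.019 and 0.148, knockout libraries 1 and 3 correlating best with their own number and knockout library 2 with control library 3. The labels state no pairing, and whether the numbers pair the libraries is not settled by these values. Eif5a reversed to 0.00081 with upper-quartile size factors, to 0.018 with none, and over -0.055 to 0.030 without each library in turn. Without each library, Eif5a2 lay between -0.10 and 0.19, Wdr83 between -0.48 and 0.090, Smim24 between -0.15 and 0.39, Gps2 between -0.16 and 0.15 and Rpl22l1 between -0.085 and 0.078. Gps2 also reversed to 0.0023 with upper-quartile size factors, 0.021 with none and 0.025 with limma-voom, and Rpl22l1 to 0.012 with none. Against 11 genes called, 10 higher and 1 lower, DESeq2 called 22, 19 higher and 3 lower. With Lyz2 left out 7 were called and 0 were lower. Without each library 4 to 19 were called, 3 to 14 higher and 1 to 5 lower. The causes were not tested. Counts of 117 to 337 per library for Dhps, Dohh and Eif5a2 leave a counting error of 5.45% to 9.25%.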

Other observations

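Of all 10551 genes, 104 had a log2 fold change at or below that of Dhps. Of the 6861 genes averaging at least 10 CPM, 6 had a log2 fold change at or below that of Dhps, Dhps included. The other 5, named after their values were seen, were Lyz2 (-1.04), Cpne8 (-0.65), Ifi27l2a (-0.64), Sema3c (-0.61) and Gdf3 (-0.60). Lyz2, the lysozyme of macrophages, passed edgeR's test (adjusted p = 7.2e-05), and the adjusted p-values of the other 4 lay between 0.439 and 0.749. In the opposite direction, 16 genes of that level were at least as much higher as Dhps was lower.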
